A study of Mus musculus with 2 samples.

Results

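The nuclei described here are a set of macrophages of mouse inguinal white adipose tissue (iWAT), a fat depot under the skin, which were chosen by 9 marker genes and carry the working name macrophages with Timd4, Cd209b and Fcna. A nucleus was a member if it had at least 500 detected genes, at most 5% of its unique molecular identifiers (UMIs, each marking 1 captured RNA molecule) from mitochondrial genes, and a UMI of at least 3 of Timd4, Cd209b, Fcna, Ms4a14, Ms4a7, P2ry6, Tfec, Lilrb4a and Lilr4b. It was left out if it had more than 1 of 6 markers of another macrophage set (St18, Ptpro, Adgre4, Sirpb1a, Sirpb1b, Skint3), more than 2 of 6 markers of the resident Mrc1 macrophages (Mrc1, F13a1, Cd163, Ms4a4a, Mctp1, Hrh1) or more than 1 of 4 adipocyte markers (Plin1, Plin4, Cidec, Lipe). This gave 107 members among 6593 kept nuclei, 97 of 3649 labelled WT and 10 of 2944 labelled KO.

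The study asked what loss of the long noncoding RNA Lexis in fat cells does to the cells of iWAT. Single-nucleus RNA sequencing was done on 1 library labelled Lexis WT and 1 labelled Lexis KO, each from the iWAT of 3 male mice pooled by group and dissected free of the lymph node. Both groups carried floxed Lexis alleles on a C57BL/6 background and ate a Western diet, for less time than in the main feeding experiments of the study. The KO group in addition carried Cre driven by the Adipoq promoter, which is active in adipocytes and not in macrophages, and the WT group was Cre negative. The study gives an age for most of its experiments but not for these mice. With 1 pooled library per genotype there is no replicate, so no test was made, and the 95% intervals given cover only the error of counting.

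Tissue macrophages engulf dying cells and debris, and several of the chosen genes belong to that task. Timd4 encodes a receptor for phosphatidylserine, the lipid that dying cells expose. Cd209b encodes SIGN-R1, a C-type lectin of marginal zone macrophages in the spleen and of lymph node macrophages that binds microbial sugars. Fcna encodes ficolin A, a secreted lectin that starts the complement cascade. Ms4a7 and Ms4a14 encode membrane proteins of the MS4A family, P2ry6 a receptor for the nucleotide UDP, Tfec a transcription factor of the MiT/TFE family, and Lilrb4a and Lilr4b related immune receptors.

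The deposited names of both data sets carry the genotype opposite to their sample labels, and no value of Lexis is given here, so each library goes by its sample label. They held 9376351 UMIs (labelled WT) and 19655049 UMIs (labelled KO), with 5000 barcodes each. The members had a median of 1803 UMIs (773 to 13718) in the first and 3871.5 (2343 to 6317) in the second, and the other kept nuclei 1195 and 3977. No member carried a barcode present in both libraries, of which there were 12. Lymphocytes, taken as nuclei with at least 3 genes of the B and T cell lists and at most 1 marker of each of the 4 lists of the rule, numbered 2044 (labelled WT) and 69 (labelled KO). The doublet caller Scrublet marked 3 of 97 and 0 of 10 members.

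The members were a larger part of the library labelled WT. They made up 2.66% of its kept nuclei (exact interval 2.16 to 3.23) and 0.340% (0.163 to 0.624) of those in the library labelled KO, a difference of -2.32 percentage points for KO minus WT (-2.92 to -1.75). Since deeper nuclei can show more markers, every nucleus was also thinned to 1000 UMIs, which 2411 and 2827 nuclei reached. The shares were then 2.45% and 0.283%. The order turned when the limit on Mrc1 markers was dropped, with 144 nuclei (3.95%) labelled WT and 158 (5.37%) labelled KO, a difference of 1.42 points (0.379 to 2.49). With that limit dropped and nuclei thinned to 1000 UMIs, the share labelled WT was again higher, 2.99% against 1.66%.

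Most nuclei labelled KO with enough chosen markers were left out by the limits. At least 3 of the 9 chosen markers were seen in 175 nuclei labelled WT and in 307 labelled KO. Of these, 62 (35.4%) and 279 (90.9%) exceeded the limit on Mrc1 markers, 2 and 61 that on the St18 group, and 30 and 110 that on adipocyte markers. Among the 97 members labelled WT, 52 had 3 chosen markers, 35 had 4, 8 had 5, and 1 each had 6 and 7. Of the members labelled KO, 8 had 3 and 2 had 4. Just outside the rule, with 2 chosen markers and all limits met, were 106 nuclei labelled WT, 58 of them with Ms4a7 and 12 with Timd4, and 37 labelled KO, 22 of them with P2ry6 and 2 with Timd4.

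**Figure D1:**
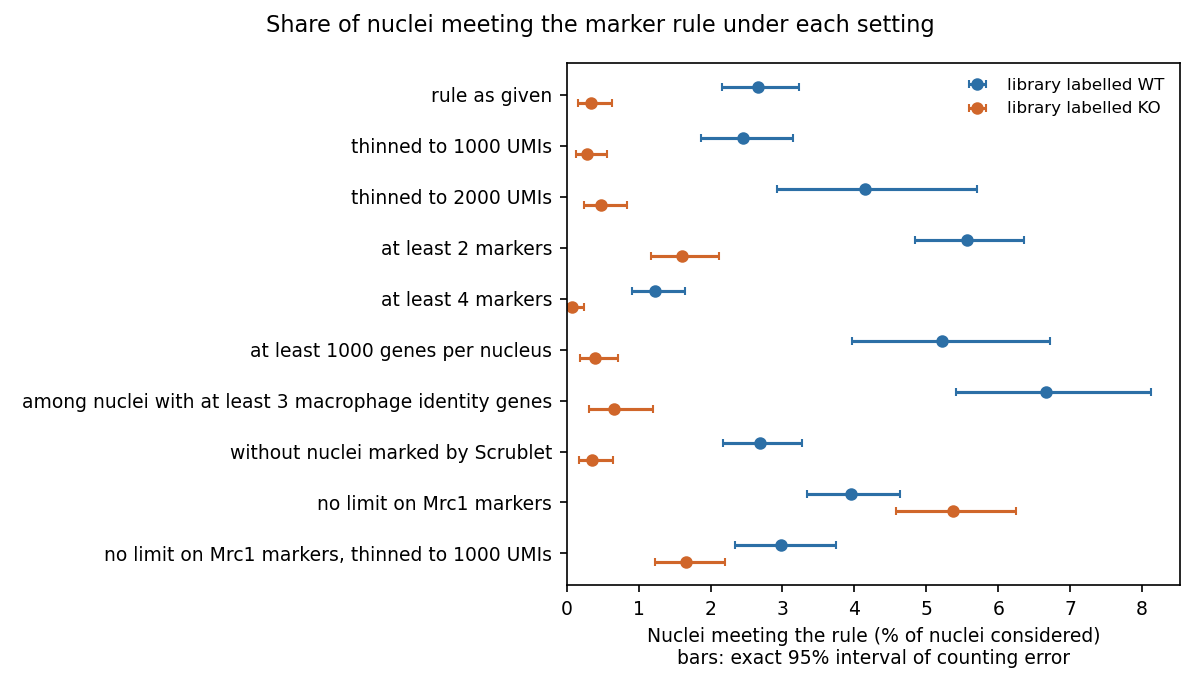
Share of nuclei that met the marker rule (x axis, percent of the nuclei considered) under each setting (y axis), with points for each library and bars for exact 95% intervals of counting error. The share labelled WT is above that labelled KO in every setting but the one with no limit on Mrc1 markers, where it is 3.95% against 5.37%.

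The 3 genes of the working name were not the ones most members carried. These values describe the choice and test nothing, since the rule used them. Ms4a7 led in the members labelled WT, with 187 UMIs in 79.4% of nuclei, followed by P2ry6 (92 UMIs, 63.9%), Lilr4b (165 UMIs, 58.8%) and Lilrb4a (72 UMIs, 50.5%). Ms4a14 was found in 33.0% of them and Tfec in 23.7%. Timd4 had 85 UMIs in 22.7% of nuclei and Cd209b 105 UMIs in 19.6%, while Fcna had 9 UMIs in 8.25%.

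Fcna was more frequent in the Mrc1 macrophages labelled WT than in the members. It was seen in 24.4% (12.4 to 40.3) of the 41 Mrc1 macrophages labelled WT, at 309 CPM (UMI counts of the gene scaled to a set total of 1000000) against 35.7 CPM in members, but in 2.74% of the 219 Mrc1 macrophages labelled KO. For comparison, Timd4 was found in 1.52% of lymphocytes and 1.75% of adipocytes of the library labelled WT, at median depths of 1047.5 and 3619 UMIs, Cd209b in 1.81% and 0.752%, and Ms4a7 in 2.05% and 1.50%. The rule itself required such markers of the members, so their higher shares follow from the choice. Lymphocytes and adipocytes were allowed at most 1 chosen marker, so their shares are capped by the choice as well and do not measure a free background. Members held 39.7% of all Timd4 UMIs of the kept nuclei labelled WT, 36.7% of those of Cd209b, 47.6% of those of Ms4a14 and 9.28% of those of Fcna. Of the 85 Timd4 UMIs of these members, 26 lay in 1 nucleus, as did 31 of the 105 of Cd209b.

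The 10 members labelled KO were carried by P2ry6 and the LILR receptors. P2ry6 and Lilr4b were each seen in 9 of the 10, Lilrb4a in 6, Ms4a7 in 5, and Timd4, Ms4a14 and Tfec in 1 each. Cd209b and Fcna were seen in 0 of 10, which allows shares of nuclei with a UMI of up to 30.8% and levels of up to 96.2 CPM. In the members labelled WT, Cd209b had 416 CPM, above that limit, and Fcna 35.7 CPM, below it. Both genes are part of the rule, so these values are a description. In the same library Cd209b had 42 UMIs in 9.59% of the 219 Mrc1 macrophages. The single member with Timd4 had 5 UMIs of Clec9a, a receptor of type 1 conventional dendritic cells, and 0 UMIs of Maf, C1qa, Apoe and Lyz2. It had 22 UMIs over 6 dendritic cell genes, 13 over 5 of 20 macrophage identity genes and 16 over 6 stromal progenitor genes. It also had 8 UMIs of Mrc1 markers, and 4.71% of its UMIs were mitochondrial. The genes of the working name were thus detected in a minority of the members of either library.

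**Figure D2:**
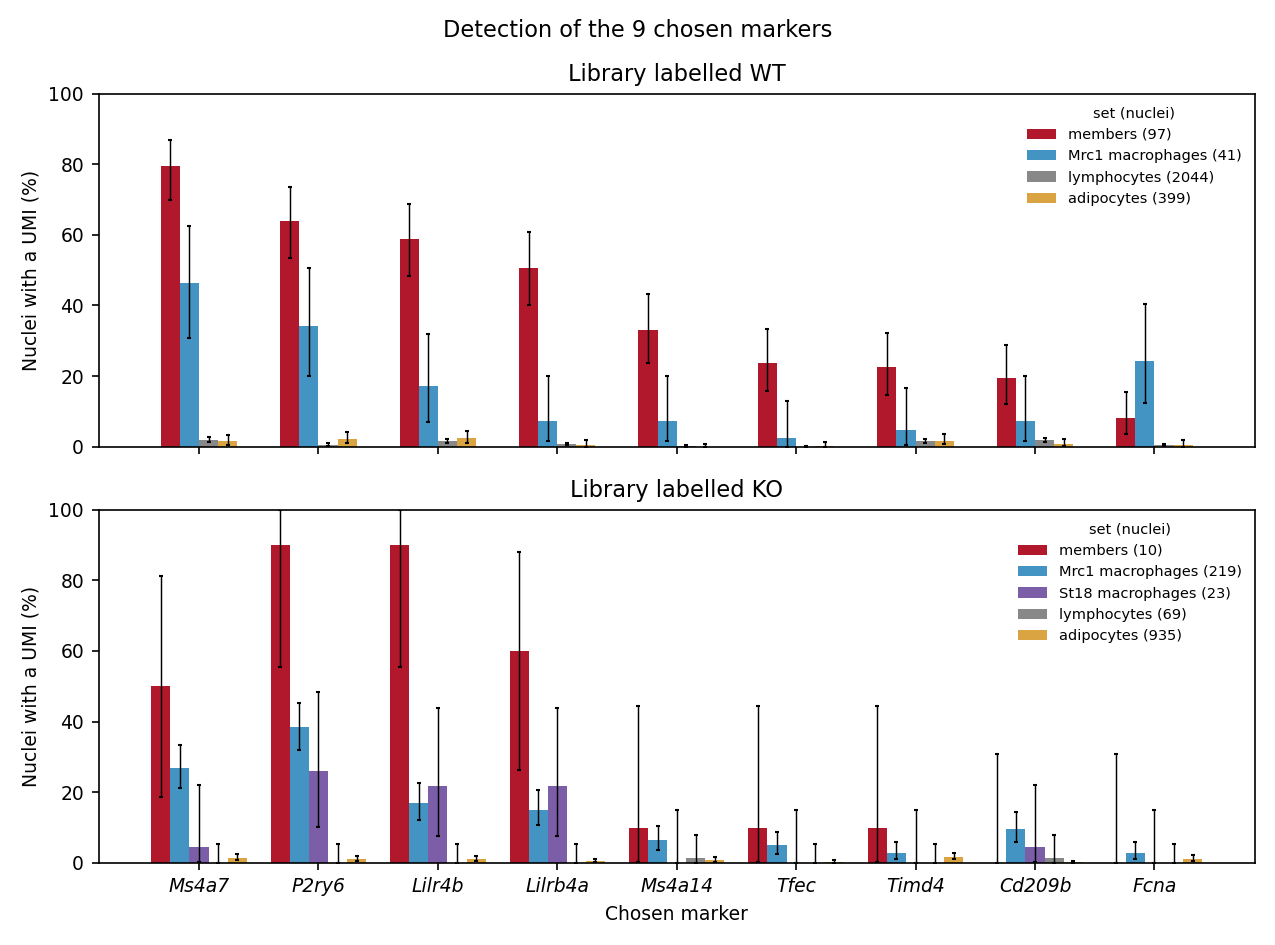
Percent of nuclei with at least 1 UMI (y axis) of each chosen marker (x axis) in the members and in 3 (WT) or 4 (KO) comparison sets of each library, with exact 95% intervals as error bars. Ms4a7 (79.4%) leads in the members labelled WT and P2ry6 and Lilr4b (9 of 10 nuclei) in those labelled KO, and Fcna is more frequent in the Mrc1 macrophages labelled WT (24.4%) than in the members (8.25%).

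The members carried a macrophage signature. At least 3 of 20 macrophage identity genes were found in 92 of 97 members labelled WT (median 7 genes) and in 10 of 10 labelled KO (median 10.5). As many were also found in 655 of 2044 lymphocytes and 105 of 399 adipocytes labelled WT. In the library labelled KO they were found in 27 of 69 lymphocytes and 330 of 935 adipocytes. Csf1r, the receptor for the macrophage growth factor CSF1, was seen in 55.7% of members labelled WT against 3.52% of lymphocytes and 3.76% of adipocytes. C1qa, a subunit of complement C1q, was seen in 55.7% against 7.49% and 8.52%. Summed over the list, identity genes reached 7343 CPM (7013 to 7685) in these members, 8491 CPM in Mrc1 macrophages, 3985 CPM in lymphocytes and 732 CPM in adipocytes. Adgre1, which encodes the marker F4/80, was sparse, with 15 UMIs in 12.4% of members labelled WT and 4 UMIs in 3 of 10 labelled KO. Dendritic cell genes summed to 583 CPM in the members labelled WT, 561 CPM in Mrc1 macrophages and 539 CPM in lymphocytes, and 8 of 97 members had at least 3 of the 12 genes of that list. Cadm1 had 32 UMIs in 20 of these members and Siglech 28 UMIs in 11, while Flt3 and Clec9a were each seen in 2 and Xcr1 in 1. In the members labelled KO the list summed to 1435 CPM, with 22 of its 55 UMIs in the single nucleus with Timd4.

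Transcripts of other cell types were also counted in these nuclei. The list of 10 B cell genes reached 1339 CPM in members labelled WT, 1642 CPM in Mrc1 macrophages and 8283 CPM in lymphocytes, and 17 of 97 members had at least 3 of its genes. Cd79a, a part of the B cell receptor, was seen in 22.7% of members, 26.8% of Mrc1 macrophages, 19.3% of adipocytes and 57.5% of lymphocytes. T cell genes reached 369 CPM in members and 1872 CPM in lymphocytes. The lymphocytes were chosen by these B and T cell lists, so their high values follow from the choice. Stromal progenitor genes, among them Dcn, Col1a1 and Col3a1, reached 5556 CPM in members and 5122 CPM in Mrc1 macrophages, and 24 of 97 members had at least 3 of them. The part of such transcripts in the results below was not tested, except where values without those 24 nuclei are given.

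Within the members labelled WT, the chosen markers did not all occur together. Ms4a7 was present in 30 of the 32 nuclei with Ms4a14, in 45 of the 62 with P2ry6 and in 44 of the 57 with Lilr4b. Timd4 and Cd209b shared 12 nuclei, out of 22 and 19. Only 1 of the 22 Timd4 nuclei had Ms4a14, and 5 of 22 had Lilr4b. Since a member needed 3 markers, the counts of pairs are not independent of the rule and are given as a description. Lilrb4a and Lilr4b, which shared 31 nuclei, are neighbouring genes with closely similar sequences on chromosome 10, so that reads may have been split between them in counting.

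**Figure D3:**
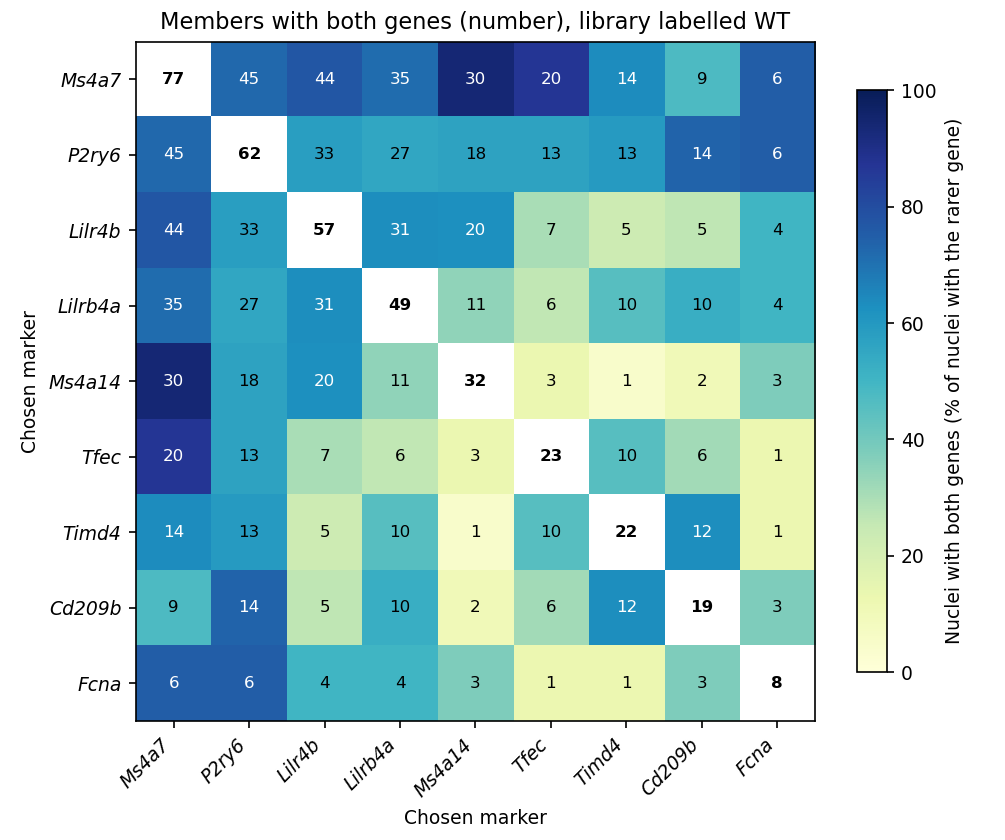
Number of the 97 members labelled WT with at least 1 UMI of both genes (off-diagonal cells) or of 1 gene (diagonal), with shading for the number as a percent of the nuclei with the rarer gene of the pair. Ms4a14 lies almost wholly within Ms4a7 (30 of 32 nuclei), Timd4 and Cd209b share 12 nuclei, and Timd4 and Ms4a14 share 1.

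Ms4a7 (chr19:11321039-11336146) and Ms4a14 (chr19:11301249-11315877) are neighbours on chromosome 19, whereas Timd4 (chr11:46810786-46844333) and Cd209b (chr8:3917655-3926841) lie on chromosomes 11 and 8 (RefSeq, GRCm38.p6, the assembly also named mm10). All are protein-coding genes. The promoters of these pairs are shown because their genes were seen together, each running from 250 bases before to 50 bases after the transcript start, 5′ to 3′ on the gene's strand. Capitals mark the letters GAGGAA on either strand (TTCCTC on the other), the core that the macrophage transcription factor PU.1 binds.

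Ms4a7: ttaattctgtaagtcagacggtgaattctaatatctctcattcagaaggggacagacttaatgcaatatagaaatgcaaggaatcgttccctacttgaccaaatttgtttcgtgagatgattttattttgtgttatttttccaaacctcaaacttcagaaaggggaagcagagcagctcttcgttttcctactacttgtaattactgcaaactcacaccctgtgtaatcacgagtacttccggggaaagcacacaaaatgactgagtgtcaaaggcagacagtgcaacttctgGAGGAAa
Ms4a14: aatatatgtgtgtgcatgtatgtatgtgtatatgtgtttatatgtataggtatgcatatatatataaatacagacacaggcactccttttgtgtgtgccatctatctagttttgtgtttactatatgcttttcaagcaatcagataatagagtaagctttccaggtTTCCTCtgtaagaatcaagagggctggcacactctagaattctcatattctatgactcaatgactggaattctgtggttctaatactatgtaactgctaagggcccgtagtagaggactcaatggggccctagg
Timd4: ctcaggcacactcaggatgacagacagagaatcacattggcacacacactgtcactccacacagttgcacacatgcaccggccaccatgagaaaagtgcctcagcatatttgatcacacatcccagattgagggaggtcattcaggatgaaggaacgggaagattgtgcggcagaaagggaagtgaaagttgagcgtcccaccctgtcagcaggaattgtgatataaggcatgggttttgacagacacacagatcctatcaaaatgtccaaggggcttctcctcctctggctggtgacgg
Cd209b: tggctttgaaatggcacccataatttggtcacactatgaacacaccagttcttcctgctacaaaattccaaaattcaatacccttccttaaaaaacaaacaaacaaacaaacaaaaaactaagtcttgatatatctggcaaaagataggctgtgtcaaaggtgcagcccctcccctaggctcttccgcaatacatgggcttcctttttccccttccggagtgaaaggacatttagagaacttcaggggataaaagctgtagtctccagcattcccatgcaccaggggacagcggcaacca

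These windows are chr19:11336097-11336396 (minus strand) for Ms4a7, chr19:11314405-11314704 (minus strand) for Ms4a14, chr11:46810549-46810848 (plus strand) for Timd4 and chr8:3926792-3927091 (minus strand) for Cd209b. The Ms4a14 window lies inside the span of the gene given above, so its transcript start is not the outer end of the gene. The letters occur 1 time each in the Ms4a7 and Ms4a14 windows and 0 times in the Timd4 and Cd209b windows. A further Ms4a7 promoter in the table, chr19:11334646-11334945, holds them 0 times. Of the 9 chosen markers, 7 had a promoter in the RefSeq table and 4 of these held the letters in at least 1 promoter, beside 28.3% of 32851 promoters of the same length. A match describes the letters and not a bound site.

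The members labelled WT could be divided by the genes of the working name. After the values had been seen, the 29 members with a UMI of Timd4 or Cd209b (median 1889 UMIs) were set against the remaining 68 (median 1802 UMIs). As a description of the same nuclei, 11.5% of 5197 genes reached a CPM ratio of 2 or more and 14% of 0.5 or less, with a median log2 ratio of -0.01 over all genes. Genes known from macrophages of lymph node and spleen were higher with Timd4 or Cd209b, 7 of 9 at a ratio of at least 2 and 1 of 9 at most 0.5, with a list median of 1.41 on the log2 scale. Genes of lipid-associated macrophages, which gather around dying fat cells in obese adipose tissue, had a list median of -0.67, with 0 of 12 at a ratio of at least 2 and 3 of 12 at most 0.5.

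Spic, the transcription factor of red pulp macrophages of the spleen, had 34 UMIs in 19 of the 29 Timd4 or Cd209b members and 12 UMIs in 8 of the 68 others, a ratio of 6.57 (3.32 to 13.9). Siglec1, the sialic acid receptor CD169 of lymph node and marginal zone macrophages, had 34 against 17 UMIs (ratio 4.64, 2.52 to 8.85). Vcam1, an adhesion molecule also found on splenic macrophages, had 70 UMIs in 20 of 29 against 61 UMIs in 23 of 68 (ratio 2.66, 1.86 to 3.81). Siglec1 was seen in 12 of 29 and 9 of 68 nuclei. Mertk and Axl, both receptors for the uptake of dying cells, had ratios of 2.79 (1.84 to 4.26) and 2.55 (1.33 to 4.93), and Nr1h3, which encodes the oxysterol receptor LXRα, a ratio of 2.45 (1.19 to 5.07). Marco, a scavenger receptor of marginal zone macrophages, had 23 UMIs against 2, but 14 of the 23 lay in 1 nucleus.

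Further genes separated the same nuclei. Siglech, a receptor best known from plasmacytoid dendritic cells, showed the widest gap, with 27 UMIs in 10 of 29 nuclei against 1 UMI in the others (ratio 62.6, 10.3 to 2563). The dendritic cell list had 4 of 7 tested genes at a ratio of 2 or more and 1 at 0.5 or less, with a median of 1.21. It summed to 907 CPM (69 UMIs, 6 of 29 nuclei with at least 3 of its genes) against 442 CPM (78 UMIs, 2 of 68 nuclei). Zbtb46, a transcription factor of conventional dendritic cells, had 7 against 3 UMIs (ratio 5.41, 1.24 to 32.4), while Cadm1 had 2 against 30 (ratio 0.155, 0.0179 to 0.609). The part of dendritic cells in the values of this division was not tested. Cd209d, a relative of Cd209b on the same chromosome, had 12 against 4 UMIs (ratio 6.96, 2.11 to 29.6), Ccl8, a chemokine, 66 against 47 (ratio 3.26, 2.21 to 4.84), and Ms4a8a 9 against 2 (ratio 10.4, 2.16 to 99.2). The gene Cdc40, a splicing factor, had 39 against 18 UMIs (ratio 5.02), and Sulf2, a sulfatase of the cell surface, 17 against 3 (ratio 13.1). Ccl2 had 18 against 6 UMIs, of which 14 lay in 1 nucleus.

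A few lipid-associated and lysosomal genes, singled out after their values were seen, were higher in the remaining members. Of the lysosomal and MiT/TFE list, 4 of 18 genes had a ratio of 0.5 or less and 0 of 2 or more, with a median of -0.46, and Mmp12 of the lipid-associated list lay on the other side at 1.75 (1.17 to 2.61). Gpnmb, a glycoprotein of phagocytes loaded with lipid, had 151 UMIs in 20 of the 68 remaining members and 4 UMIs, all in 1 nucleus, in the Timd4 or Cd209b members, a ratio of 0.0614 (0.0165 to 0.161). Trem2, the lipid receptor that defines lipid-associated macrophages, had 24 UMIs against 1 (ratio 0.0966, 0.00235 to 0.592). Ctsl, a protease of the lysosome, had 181 against 18 (ratio 0.231, 0.134 to 0.375), and Atp6v0d2, a subunit of its proton pump, 32 against 3 (ratio 0.217, 0.0426 to 0.695). The chemokine gene Ccl9 had 35 UMIs in 22 of 68 nuclei against 1 UMI (ratio 0.0662, 0.00163 to 0.394), and Rnf121 81 against 5 (ratio 0.143). Plin2, which coats lipid droplets, lay at a ratio of 0.545 (0.374 to 0.776), and Apoe at 1.08 (0.922 to 1.25).

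Several stromal genes also had low ratios in this division, but through single nuclei of the remaining members. All 33 UMIs of Fbln1 and 310 of the 379 of Dcn lay in 1 nucleus, as did 43 of the 50 of Ogn, 31 of the 39 of Ctgf, 33 of the 36 of Apod, 58 of the 79 of Ly6a, 55 of the 69 of Igfbp6 and 34 of the 49 of Timp3. Stromal genes summed to 3288 CPM in the Timd4 or Cd209b members and 6534 CPM in the remaining ones.

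**Figure D4:**
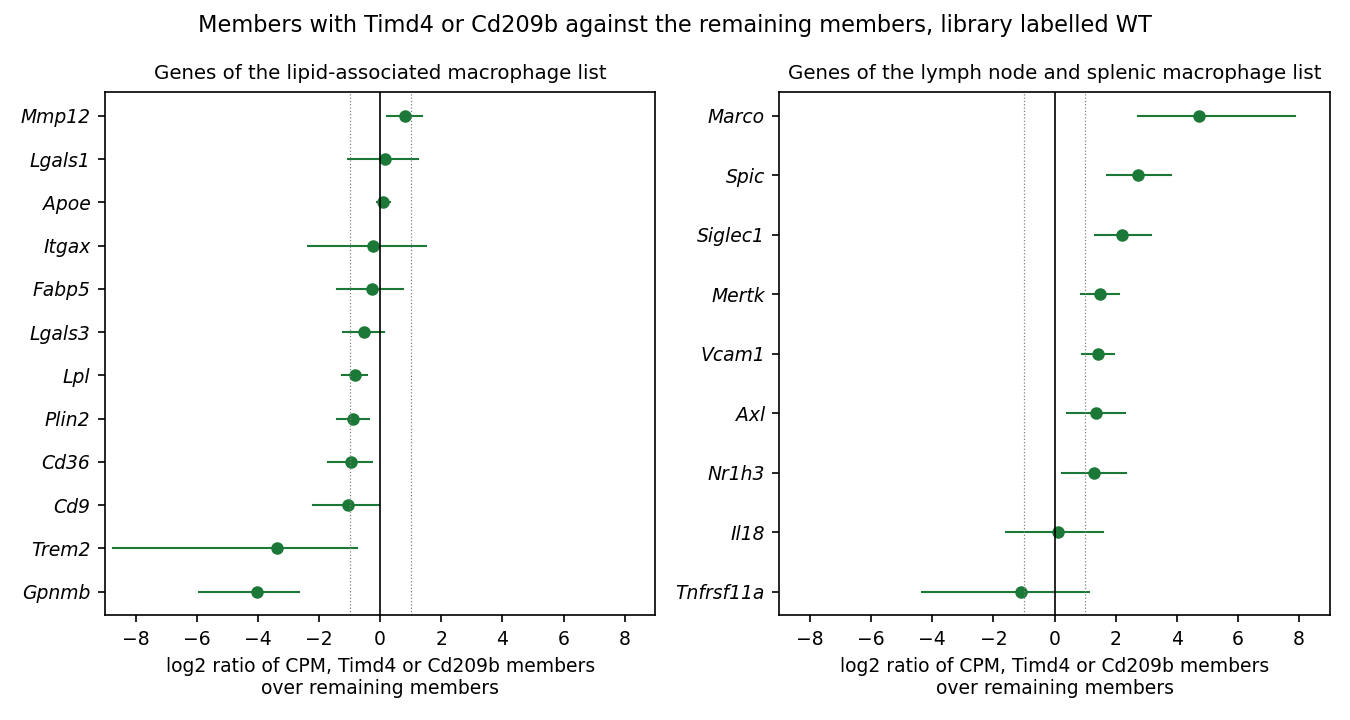
Log2 ratio of CPM in the 29 Timd4 or Cd209b members over the 68 remaining members labelled WT (x axis) for genes of the lipid-associated (left) and of the lymph node and splenic macrophage list (right) with enough counts, with 95% intervals of counting error as lines. Gpnmb and Trem2 lie far left of 0 and Siglec1, Spic and Marco far right, and dotted lines mark ratios of 0.5 and 2.

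Against the 41 Mrc1 macrophages of their own library, the members labelled WT were higher in lipid-associated genes. Of 6159 genes with at least 10 counts over both sets, outside the 25 genes of the rule, 16.3% reached a ratio of 2 or more (called high below) and 9.87% of 0.5 or less (called low), with a median log2 ratio of 0.05. The rule capped the Mrc1 markers in the members, so nuclei rich in genes of that set were kept out by the choice itself, and low ratios of such genes are a description. The lipid-associated list had 7 of 12 genes at a ratio of at least 2 and 0 at most 0.5, with a median of 1.20. Genes with 0 UMIs in 1 set entered these medians at their bound, computed with 3 counts over the set.

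Gpnmb had 155 UMIs in 21 of 97 members and 1 UMI in the Mrc1 macrophages, a ratio of 43.8 (7.74 to 1740). Its log2 ratio of 5.45 went to 2.77 with nuclei thinned to 1000 UMIs and to 3.73 without nuclei marked as doublets. These lower values turn on the 1 UMI in the Mrc1 macrophages. A setting that loses it gives a bound at 3 counts and not a ratio, so they need not mean a weaker difference. Mmp12, a metalloelastase of macrophages, had 107 UMIs in 18 members against 4 (ratio 7.55, 2.87 to 28.2). Plin2 lay at 3.86 (2.29 to 7.02), Lgals3, which encodes galectin 3, at 3.51 (1.79 to 7.88), and the tetraspanin Cd9 at 3.28 (1.33 to 10.5). For Trem2 the ratio was 2.35, with an interval of 0.718 to 12.2 that includes 1. Apoe, the lipid carrier, was lower, at 0.599 (0.529 to 0.679). Plin2 was also frequent in adipocytes (57.9% of nuclei) and present in 10.9% of lymphocytes, while Gpnmb was found in 5.01% and 4.40% of them.

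Genes of lymph node and splenic macrophages had 4 of 9 at a ratio of at least 2, 0 at most 0.5 and a list median of 0.82. The stromal progenitor list had the same counts, 4 of 9 and 0, with a median of 0.84. Leaving out the 24 members with at least 3 stromal genes moved the log2 ratio of Spic from 3.70 to 4.12. That of Vcam1 went from 2.89 to 3.33, that of Mertk from 1.32 to 1.74 and that of Tnfrsf11a from -0.56 to -0.01. The bound of Nr1h3 went from 1.72 to 1.99. Otherwise the part of stromal transcripts in this result was not tested. Spic had 46 UMIs in 27 members and 1 in Mrc1 macrophages, a log2 ratio of 3.70 (ratio interval 2.22 to 524), which went to 1.26 after thinning. Here too a setting that loses the 1 UMI in the Mrc1 macrophages gives a bound at 3 counts. Vcam1 had 131 in 43 members against 5 (ratio 7.40, 3.09 to 23.2). Nr1h3 had 35 UMIs in 22 members against 0, at least 3.29-fold higher with these put at 3 counts (lower 95% limit 2.54), and its log2 bound of 1.72 went to 0.90 after thinning. Mertk had 97 in 40 members against 11 (ratio 2.49, 1.33 to 5.15), while Siglec1 lay at 1.20 (0.631 to 2.47) and Tnfrsf11a, the receptor RANK, at 0.678 (0.222 to 2.46).

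Ttn, which encodes the muscle protein titin, had the highest lower limit of the ratio, 32.4. It had 425 UMIs in 22 of 97 members, at most 77 in 1 nucleus, and 0 in the Mrc1 macrophages, at least 40.0-fold higher when the latter are put at 3 counts, and the other 3552 kept nuclei labelled WT together had 663. Rgs1, a brake on chemokine receptor signalling, had 112 UMIs in 34 members against 3 (ratio 10.5, 3.52 to 51.9). Tnfaip2, a gene induced by tumour necrosis factor, had 103 in 45 members against 3 (ratio 9.69, 3.23 to 47.8), 2010111I01Rik 75 in 34 against 1 (ratio 21.2, 3.69 to 847), and Trpm2, a calcium channel of phagocytes, 56 in 24 against 1 (ratio 15.8, 2.72 to 636). The log2 ratio of Trpm2 went from 3.98 to 2.27 without nuclei marked as doublets, and the log2 bound of Ttn from 5.32 to 3.96 after thinning. With 1 UMI of Trpm2 in the Mrc1 macrophages, its lower value may be a bound at 3 counts and not a ratio. Abcg3 had 47 UMIs in 24 members against 0, at least 4.42-fold higher on the same footing (lower limit 3.46), and its log2 bound of 2.15 went to 1.60 with at least 4 markers and 1.68 after thinning.

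For other genes with high ratios, much of the count lay in single nuclei. Of the 587 Gsn UMIs in the members, 337 lay in 1 nucleus, as did 310 of the 418 of Dcn, 33 of the 38 of Pi16, 34 of the 51 of Timp3 and 17 of the 35 of Pmepa1. Without the 24 members that had at least 3 stromal genes, the log2 ratio of Gsn went from 2.47 to -0.70 and that of Dcn from 2.08 to -1.35. Without its top nucleus, Dcn went to 0.20, Gsn from 2.47 to 1.32 and Timp3 from 3.85 to 2.34. The ratio interval of Timp3 (0.795 to 212) then includes 1. Pi16, with a bound of 1.84 before, was left with 5 UMIs against 0. The lower limit of its ratio was then 0.274, so no direction was shown.

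The 10 genes named here had the lowest upper limits of the ratio in the members labelled WT and were picked by those values. Lyve1, a hyaluronan receptor of perivascular macrophages, had 15 UMIs against 52 (ratio 0.0815, 0.0426 to 0.147). Cd209f and Cd209g, lectins related to Cd209b, lay at 0.0479 (0.0218 to 0.0943) and 0.0889 (0.0483 to 0.156). Mgl2 and Clec10a, lectins that bind galactose, lay at 0.0507 and 0.233, Retnla at 0.110, Pf4, a chemokine, at 0.175, Cbr2 at 0.113, Fcrls at 0.0157 and Ltc4s at 0.133. All had intervals that end below 0.5.

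Lists by function gave mixed counts. Of 20 identity genes, 1 was at a ratio of at least 2 (Mertk, whose log2 ratio of 1.32 went to 0.68 after thinning, below that mark) and 5 at most 0.5, with the integrin gene Itgam lowest at 0.282 (0.132 to 0.603) and Csf1r at 1.02 (0.694 to 1.52). Of 17 genes for uptake of dying cells, 2 were high and 2 low, with the ends at Jmjd6 (4.52, 1.15 to 38.9) and the scavenger receptor Stab1 (0.274, 0.194 to 0.388). The complement and ficolin list had 1 high and 7 low of 11. C1qa, C1qb and C1qc, the 3 chains of C1q, lay at 0.405, 0.427 and 0.292, while C3 was at 5.65 with 38 of its 80 UMIs in 1 nucleus. The log2 ratio of C3 went from 2.50 to 0.99 without the stromal-rich members and to 0.98 with at least 4 markers, so that it was no longer high. Of 12 lectin and scavenger receptor genes, 1 was high (Clec4n, which encodes Dectin 2, at 8.19, 1.36 to 334) and 6 were low. Among MS4A genes outside the rule, 0 of 8 were high and 3 low, from Ms4a6d at 0.165 to the B cell gene Ms4a1 at 0.968. Without nuclei marked as doublets the log2 ratio of Ms4a1 went from -0.05 to 1.29. Of the 7 LILR and related receptors, 2 were high, with Cd300c2 at 4.94 (1.27 to 42.4) and Cd300lb lowest at 0.686 (0.270 to 1.96).

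The 10 members labelled KO were set against the 219 Mrc1 macrophages of that library. Of 7832 genes, 15.7% were high and 11.5% low, with a median of 0 on the log2 scale, and 1556 genes had 0 UMIs in the members, which held 38328 UMIs against 517514. Lipid-associated genes had 10 of 13 at a ratio of at least 2, 1 at most 0.5 and a list median of 3.08. Lysosomal and MiT/TFE genes had 14 of 20 at least 2, 1 at most 0.5 and a list median of 1.59, whereas in the members labelled WT that list had 1 of 19 high, 0 low and a median of 0.38.

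Mmp12 had 104 UMIs in 5 of the 10 nuclei, 68 of them in 1 nucleus, against 7 in the Mrc1 macrophages, a ratio of 201 (94.0 to 511). Trem2 had 22 UMIs in 5 nuclei against 18 (ratio 16.5, 8.45 to 32.6), and Itgax, the integrin CD11c, 16 against 10 (ratio 21.6, 9.22 to 53.3). Gpnmb had 10 UMIs in 3 nuclei against 7 (ratio 19.3, 6.63 to 59.7). Lgals3 lay at 8.45 (6.13 to 11.6), Cd9 at 8.59 (4.07 to 17.6) and the fatty acid transporter Cd36 at 6.60 (5.43 to 8.01). Dcstamp, a gene for the fusion of macrophages into giant cells, had 11 UMIs in 4 nuclei against 0, at least 49.5-fold higher with these put at 3 counts (lower limit 33.9). Apoe was again lower, with 26 against 1474 UMIs (ratio 0.238, 0.155 to 0.350). Lpl, the lipoprotein lipase, had 184 UMIs, of which 94 lay in 1 nucleus, and it was also seen in 98.1% of adipocytes and 73.9% of lymphocytes of that library.

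Among lysosomal genes, the proton pump subunit Atp6v0d2 lay at 14.2 (7.20 to 28.1), the lysosomal lipase Lipa at 6.63 (4.02 to 10.7), the protease Ctsd at 6.42 (4.45 to 9.13) and the transcription factor Mitf at 2.35 (1.79 to 3.04). Cd68, a lysosomal glycoprotein of macrophages, lay at 6.54 (4.12 to 10.2). Other genes with high ratios were Airn, with 67 UMIs in 8 nuclei (ratio 25.8, 16.9 to 40.1), Myo1e, a motor protein, with 76 in 9 (ratio 19.7, 13.7 to 28.6), Rgs1 with 37 in 7 (ratio 26.3, 14.7 to 48.4) and F10, coagulation factor X, with 13 in 5 (ratio 43.9, 13.6 to 185). Of the 19 Rgs1 UMIs in the Mrc1 macrophages labelled KO, 17 lay in 1 nucleus, and in the library labelled WT its log2 ratio went from 3.40 to 2.49 after thinning. Chst11 had 23 UMIs in 2 nuclei.

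Rbpj, the DNA-binding partner of Notch, was among the lowest, with 33 UMIs against 4185 (ratio 0.106, 0.0732 to 0.150). Lifr had 1 UMI against 474 (ratio 0.0285, 0.000720 to 0.159), and Psd3 18 against 1694 (ratio 0.143, 0.0848 to 0.227). Egfr and the cholesterol exporter Abca1 had 0 UMIs against 284 and 259, so that their ratios lay at 0.143 and 0.156 with the members put at 3 counts, with upper 95% limits of 0.177 and 0.194. Mertk lay at 0.332 (0.142 to 0.663), opposite to its direction in the library labelled WT. Itgam lay at 1.83 (0.755 to 3.85), Ttn at 0.844 (0.0201 to 5.43) and Abcg3 at 0.888 (0.280 to 2.17). Their intervals include 1, so the directions seen in the library labelled WT were not repeated here. Gpnmb, Mmp12 and Rgs1 were high in both libraries. Adgre1 lay at 0.175 (0.0475 to 0.454) and Stab1 at 0.0716 (0.00864 to 0.261). Vcam1, in 2 of the 10 nuclei, lay at 1.31 (0.579 to 2.59), and Spic and Marco had 0 UMIs in these members.

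**Figure D5:**
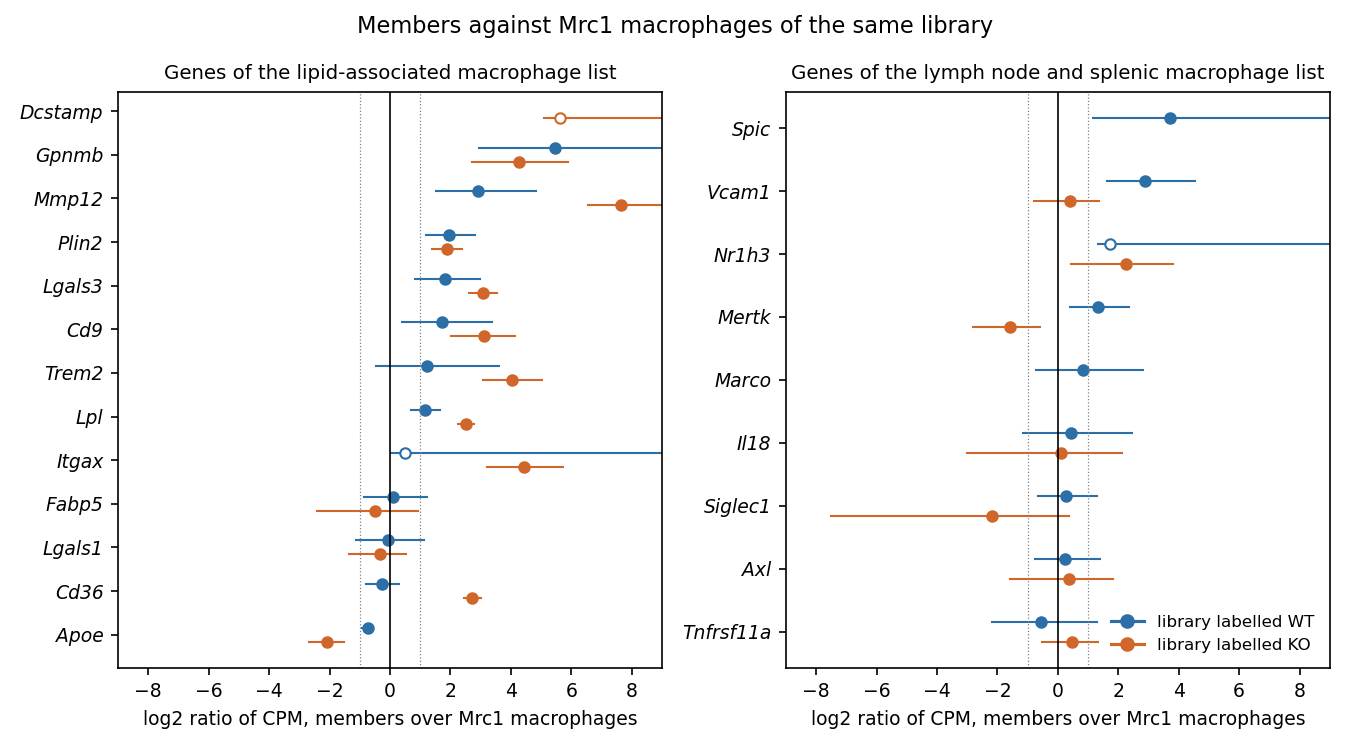
Log2 ratio of CPM in members over Mrc1 macrophages of the same library (x axis) for genes of the lipid-associated (left) and the lymph node and splenic macrophage list (right), with lines for 95% intervals of counting error (a line that reaches the edge goes on past it) and open circles for a bound where 1 set had 0 UMIs. Gpnmb, Mmp12, Plin2, Lgals3 and Cd9 lie right of 0 in both libraries, and Mertk lies right for WT (1.32) and left for KO (-1.59).

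Only the library labelled KO held nuclei of the St18 set, 23 against 0 of 3649 in the other. Against these, 14.2% of 2760 genes were high and 22.2% low in the 10 members, with a median of -0.19. The lipid-associated list had 8 of 13 high and 0 low (median 1.68), with Trem2 at 13.6 (4.10 to 71.2), Mmp12 at 13.8 (7.88 to 26.2) and Gpnmb at 18.6 (2.65 to 808). Complement genes had 5 of 7 high, among them C1qb at 8.69 (3.53 to 25.7). Maf, a transcription factor of resident macrophages, lay at 6.05 (1.87 to 25.5), and Cx3cr1, the fractalkine receptor, at 0.116 (0.00277 to 0.749), with 1 UMI against 16.

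The members of both libraries were then set against each other. Of 5840 genes, 20.7% were high and 15.8% low for KO over WT, with a median of 0, and these compare 10 nuclei with 97 from libraries that also differ in depth. The median share of mitochondrial UMIs was 2.67% in the members labelled KO and 1.07% in those labelled WT. In the Mrc1 macrophages it was 1.98% and 1.25%. The lipid-associated list had 8 of 13 high and 2 low (median 1.80). Adipocyte genes moved with it, with 3 of 5 high, 0 low and a median of 2.13, and summed to 1070 CPM in the members labelled KO against 254 CPM in those labelled WT, beside 3470 and 2088 CPM in the adipocytes of these libraries. The stromal progenitor list went the other way, with 6 of 9 low, 1 high and a median of -1.70. Their part in the result was not tested. Cd36 itself is abundant in adipocytes, with 1712 CPM in those labelled KO and 518 CPM in those labelled WT, against 4122 and 460 CPM in the members. Cd36 lay at 8.97 (7.01 to 11.5), Itgax at 7.02 (3.25 to 15.2), Mmp12 at 6.40 (4.84 to 8.46) and Trem2 at 5.79 (3.11 to 10.7), but Gpnmb at 0.425 (0.200 to 0.802) and Apoe at 0.217 (0.141 to 0.320). Siglec1 lay at 0.129 (0.00321 to 0.752), with 1 UMI against 51, and Vcam1 at 0.452 (0.202 to 0.885). Lipid-associated genes were thus not all higher in 1 library.

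The same ratio in all other kept nuclei was used as a yardstick for what differs between the libraries at large, although these differ in their makeup of cell types. Relative to it, genes among the highest were Kcnn4, a potassium channel (ratio 9.22 in members, 0.214 in other nuclei), Cd52, a surface peptide of leukocytes (2.00 and 0.0850), Mir142hg, the host gene of a miRNA of blood cells (10.4 and 0.546), and Ap1s3 (32.9 and 0.654). Within the Mrc1 macrophages the ratio of Mir142hg was 2.29, on the same side as in the members, that of Kcnn4 0.310 and that of Cd52 0.197. Mir142hg was seen in 9 of the 10 members labelled KO and in 24 of 97 labelled WT. Of the 21 Cd52 UMIs in the members labelled KO, 16 lay in 1 nucleus, as did 6 of the 14 of Kcnn4 and 6 of the 10 of Ap1s3. The lowest were Ttn, with 1 UMI against 425 (ratio 0.0155 in members, 3.96 in other nuclei), Dcn (0.0788 and 1.73, with 310 of its 418 UMIs labelled WT in 1 nucleus), and Rora, Slit3 and C7, which had 0 UMIs in the members labelled KO against 19, 18 and 10 and ratios of 20.3, 15.1 and 26.9 in other nuclei. In the Mrc1 macrophages the ratio was 2.07 for Rora and 2.62 for Slit3. For these last 3 genes the upper limits of the ratio in members were 1.41, 1.50 and 2.94, so a difference between the members themselves was not detectable at this depth, and all 10 UMIs of C7 lay in 1 nucleus. Without its top nucleus, the log2 ratio of Cd52 went from 1.00 to -0.81. That of Kcnn4 went from 3.20 to 2.59 and that of Ap1s3 from 5.04 to 3.98 in the same way.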

How the data were processed

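The authors captured nuclei with the 10x Genomics 3' v3.1 kit. The deposited matrices hold raw UMI counts. Per the file headers they were written by Cell Ranger 6.1.1, and the submitters' processing notes name mm10 and Seurat 4 as well. Whether reads in introns were counted, and any removal of free RNA, is not given in the sources used here. Each library held 31053 genes and 5000 barcodes.

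The members and gene lists were chosen with earlier results of these data known. For each set, the UMIs of a gene were added up over nuclei and scaled to a set total of 1000000 (CPM). Mrc1 and St18 macrophages had at least 3 of their 6 markers, at most 2 chosen markers, at most 1 adipocyte marker, and at most 1 marker (St18 list) or 2 markers (Mrc1 list) of each other. Adipocytes had at least 3 of the 4 adipocyte markers and at most 1 marker of each other list of the rule. Ratios of CPM have exact conditional binomial intervals, shares Clopper-Pearson, CPM Poisson, and differences of shares square-and-add intervals, all at 95% and for counting error only. A ratio of at least 2 or at most 0.5 counted as high or low, with 1 library per genotype and no test. Genes needed 10 counts over both sets, and mitochondrial genes and the 25 genes of the rule were left out. A set at 0 was put at a floor of 3 counts over the set.

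The genes named against Mrc1 macrophages are the 15 with the highest and 10 with the lowest interval bound nearest to 1 in the library labelled WT, since that labelled KO had under 30 members, all 9 chosen markers, and the ends of 7 gene lists. For KO over WT they are the 5 highest and 5 lowest after division by the ratio in other nuclei. Some genes that meet these rules are not reported here. Genes named in the division by Timd4 or Cd209b, in the members labelled KO, or from the lists beyond their ends were singled out after their values were seen. Doublets were scored with Scrublet in scanpy 1.11.5. It marked 92 nuclei labelled KO and, automatically, 0 labelled WT, where the top 4% (146) were marked instead, and none were removed from the main sets. Promoters came from RefSeq (GRCm38.p6). Scripts were tested on simulated data. Alternatives were thinning, other marker, gene and count minimums, another scaling and leaving out doublets, stromal-rich or top nuclei.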

Additional observations from a re-analysis of the deposited data

Results flagged for a closer look

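Mertk, a receptor for the uptake of dying cells, moved in opposite directions in the 2 libraries. The log2 ratio of members over Mrc1 macrophages was 1.32 in the library labelled WT (97 against 11 UMIs) and -1.59 in that labelled KO (8 against 325 UMIs), and this difference was not tested. After thinning to 1000 UMIs the value for WT was 0.68. Mertk was also seen in 49.3% of adipocytes labelled KO and in 5.76% of those labelled WT.

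Barcodes outside the filters also met the marker rule, 26 of 1351 in the library labelled WT and 5 of 2056 in that labelled KO. Of the 26, 24 had over 5% of UMIs from mitochondrial genes (median 9.19%) and 8 had Timd4 or Cd209b. All 5 labelled KO were over that limit, and 0 had either gene. These barcodes enter no comparison.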

How the results depend on the processing

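The share of members labelled WT, 2.66%, became 4.15% after thinning to 2000 UMIs, 5.56% with at least 2 and 1.23% with at least 4 markers, 5.21% with at least 1000 genes, 6.67% among nuclei with at least 3 identity genes and 3.95% with no Mrc1 limit. That labelled KO, 0.340%, became 1.60% and 0.0679% with at least 2 and 4 markers, 0.656% among identity-positive nuclei, and 5.37%, or 1.66% when thinned to 1000 UMIs, with no Mrc1 limit. Requiring 50 counts left 94 of 1006 high and 62 of 608 low genes for WT members over Mrc1 macrophages, 243 of 1228 and 579 of 898 for KO, 37 of 391 and 54 of 614 over St18 macrophages, 162 of 1206 and 264 of 921 for KO over WT, and 33 of 598 and 47 of 728 for the Timd4 or Cd209b division, since fewer genes were tested. With at least 4 markers, 645 WT genes were high and 150 KO genes low. After thinning, 473 WT genes were high, and 309 (WT) and 281 (KO) low. Without members with 3 stromal genes, 430 genes were low in the division, Gsn went to -0.70 and Dcn to -1.35 (log2). Over Mrc1 macrophages the same setting took Gpnmb from 5.45 to 5.59, Mmp12 from 2.92 to 3.30 and Ttn from 5.32 to 5.61. It took Spic from 3.70 to 4.12, Vcam1 from 2.89 to 3.33, Retnla from -3.19 to -2.78 and C1qc from -1.78 to -1.32. C3 went from 2.50 to 0.99 in that setting and 0.98 with at least 4 markers, where Fcrls went from -5.99 to -3.30 and Gsn to 0.02. Dcn went to -1.13 with at least 4 markers, and Pi16 to -1.01 without its top nucleus. Other causes were not tested. Thinning brought the log2 ratio over Mrc1 macrophages to 2.77 for Gpnmb, 1.26 for Spic, 3.96 for Ttn, 2.09 for Trpm2, 0.90 for Nr1h3, 2.49 for Rgs1, 1.68 for Abcg3, 3.00 for 2010111I01Rik, 1.95 for Mmp12, 1.00 for Cd300c2, 1.35 for Gsn, 0.23 for Dcn and 0.68 for Mertk. It brought Cd209f to -3.70, Mgl2 to -3.32 and Cd209g to -2.76. Leaving out doublets brought Gpnmb to 3.73, Trpm2 to 2.27 and Ms4a1 from -0.05 to 1.29. Gpnmb, Spic, Trpm2 and 2010111I01Rik had 1 UMI each in the Mrc1 macrophages. A setting that loses it gives a bound at 3 counts, so their falls need not mean a weaker difference. Scaling CPM without mitochondrial genes and Malat1 turned the direction of 0 named genes. The settings that dropped the Mrc1 limit or left out stromal-rich or top nuclei, and all alternatives for the division, were chosen after seeing the data. No paired analysis was possible because each genotype has 1 library and the results come from no test. The 10 members labelled KO and counts under 10 limit what the depth can show.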

Other observations

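Counts of further gene groups over Mrc1 macrophages stand beside 16.3% high and 9.87% low of all genes in the library labelled WT, and 15.7% and 11.5% in that labelled KO. MHC class II genes, which present antigen, had 5 of 10 at a ratio of at most 0.5 and 1 of at least 2 in the members labelled WT. H2-Ab1 lay at 0.384 (0.296 to 0.498), H2-Eb1 at 0.406 (0.309 to 0.533) and Cd74, the invariant chain, at 0.490 (0.403 to 0.598). In the members labelled KO 0 of 10 were high and 2 low, near the share of all genes that were low, with H2-Aa at 0.920 (0.708 to 1.18). Chemokine and cytokine genes had 6 of 13 low and 2 high in the members labelled WT, among them Ccl6 at 0.278 (0.192 to 0.402) and Ccl8 at 0.384 (0.287 to 0.517).

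Among macrophage transcription factors, Maf was low in both libraries, at 0.398 (0.312 to 0.509) and 0.345 (0.182 to 0.595). Irf8 lay at 2.40 (1.43 to 4.32) in the members labelled WT, and the list of these factors had 4 of 14 high and 2 low. In the members labelled KO it had 2 of 17 high and 4 low. Pparg, which is also an adipocyte gene, lay at 4.33 (2.67 to 6.81) there, with 678 CPM in members and 1794 CPM in adipocytes, and the part of adipocyte transcripts was not tested. Iron genes had 2 of 12 high, near the share of all genes, and 4 low in the members labelled WT, with the transferrin receptor Tfrc at 0.293 (0.165 to 0.523) and the iron exporter Slc40a1 at 2.03 (0.795 to 6.64). The purine receptor gene P2ry14 had 61 UMIs against 2 (8.61, 2.28 to 72.7). Cadm1, an adhesion molecule also found on dendritic cells, had 36 UMIs in members labelled KO against 21 in Mrc1 macrophages (23.1, 13.2 to 41.7) and 32 against 2 in the library labelled WT (4.52, 1.15 to 38.9).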
